A study of Mus musculus with 17 samples.

Results

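Trp53, its 2 paralogues Trp63 and Trp73, and Mdm4, a partner of the p53 protein, were followed through RNA-seq libraries of mouse mesenchymal cells that carry a mutant form of p53. They were taken by gene symbol, 4 of the 23420 genes counted, and each was found once. The p53 family consists of transcription factors that bind related DNA sequences. p53 halts the cell cycle or starts apoptosis after stress and is the tumour suppressor most often mutated in cancer, p63 builds stratified epithelia, and p73 acts in neurons and in multiciliated cells. Mdm4 holds p53 in check by covering its activation domain, and works together with Mdm2, the ubiquitin ligase that marks p53 for degradation.

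All 17 libraries were labelled as coming from C57BL/6 mice with the R172H knock-in allele of p53, a missense change in the DNA-binding domain. There were 2 libraries from clones of first-generation tumour line cells labelled as p53 knockout (KO clones) and 2 from clones of such cells labelled as p53 mutant (Mut clones). The others were 4 second-generation tumour lines (TL2), 6 first-generation tumour lines (TL1) and 3 cultures of bone marrow mesenchymal stem cells (MSC). The control clones and the MSC therefore carried the mutant allele too, and no library of cells with wild-type p53 was analysed here. The labels give neither the zygosity of the allele nor the method of the knockout, and they do not name the tumour line that the clones came from. Each library labelled as a clone is counted as 1 clone here, though the labels do not say that the 2 of a group are different clones. No treatment was given. Per the labels, tumour-derived cells were kept on agar with leukaemia inhibitory factor and MSC in a medium of their own, so that culture and origin cannot be told apart in the comparison of tumour lines with MSC. TL2, TL1 and MSC libraries are called by the number in their titles, with a letter where a number occurs more than once in a group.

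Library totals ranged from 12215025 to 15962341 counts. Levels are given as CPM, which sets each count against the library size after TMM scaling. The 16 mesenchymal stromal markers summed to 7056 to 9497 CPM in KO clones, 4097 to 7324 CPM in Mut clones, 5402 to 14210 CPM in the tumour lines and 25746 to 35846 CPM in MSC. Ptprc, the pan-leukocyte marker, had at most 5 counts in any library, and all 14 macrophage and haematopoietic markers together reached at most 65.8 CPM. In these bulk samples, fewer cells expressing a gene and less RNA per cell cannot be told apart. The labels do not tell whether the libraries of a group are from different animals or cultures. A p-value therefore reflects how these libraries vary, in part perhaps for technical reasons.

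The codon of the knock-in allele places the mutation within the counted gene. In GRCm38 with the GENCODE annotation, Trp53 lies on the plus strand at chr11:69580359-69591873, and codon 172 of its 390-residue transcript is in exon 5 of 11, at chr11:69588511-69588513. The reference sequence of the plus strand around it, chr11:69588481-69588543, is shown with the arginine codon that R172H changes in capitals.

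Trp53 codon 172: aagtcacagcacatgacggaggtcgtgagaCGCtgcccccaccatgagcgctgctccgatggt

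Counts per gene do not show which allele or which part of a transcript was read. Trp63 lies on the plus strand of chromosome 16, from 25683763 to 25892102. Trp73 lies on the minus strand of chromosome 4, from 154056253 to 154140208. Mdm4 lies on the minus strand of chromosome 1, from 132959484 to 133030561.

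The 4 genes stood at very different levels. Per length of exon sequence, as RPKM, the 17 libraries averaged 55.8 ± 19.4 for Trp53, 1.50 ± 0.536 for Mdm4, 0.552 ± 0.973 for Trp63 and 0.00333 ± 0.00784 for Trp73 (SD). Trp53 was the member read most, and Mdm4 was below Mdm2, at 12.6 ± 2.01 RPKM. Cells that showed almost no Trp73 and little Trp63 still held Trp53 RNA in every group, the clones labelled as knockout included.

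**Figure D1:**
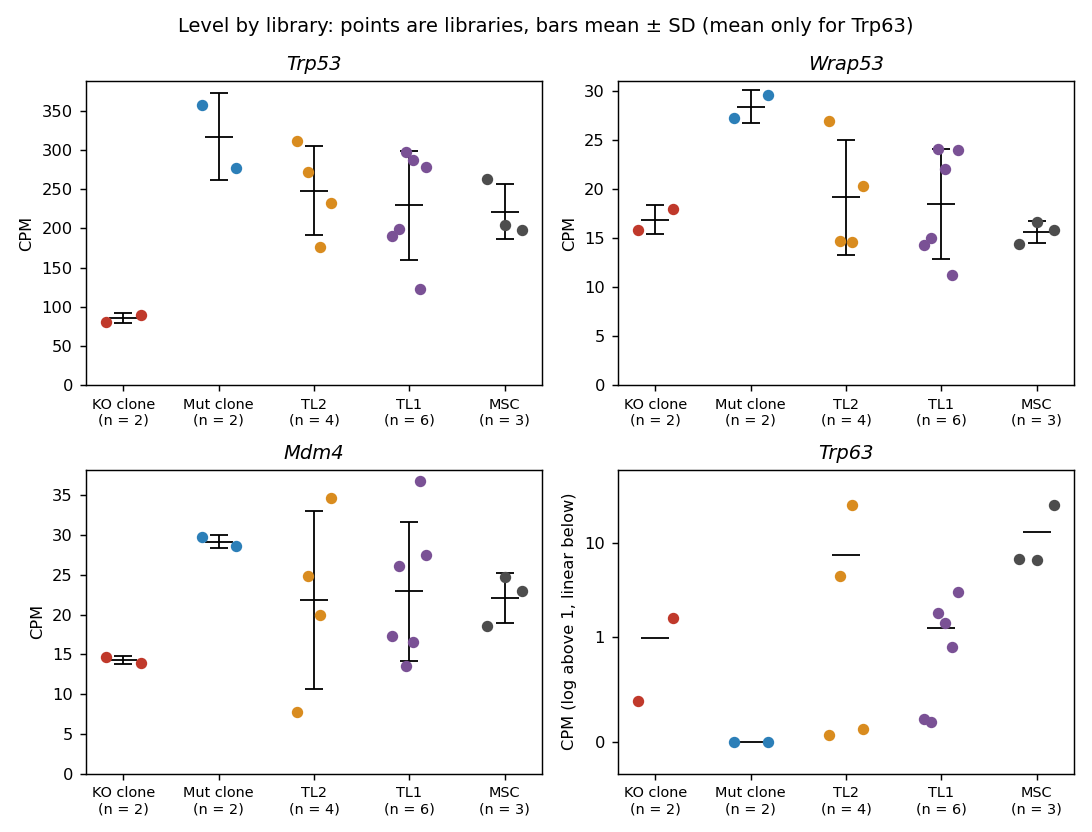
CPM of Trp53, its neighbour Wrap53, Mdm4 and Trp63 in each of the 17 libraries, by group. Points are libraries and bars give the mean ± SD of the group (the mean alone for Trp63, whose axis is logarithmic above 1 CPM and linear below). The 2 KO clones lie below all other libraries for Trp53, and the 2 Mut clones lie at 0 for Trp63.

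The comparison of KO with Mut clones sets libraries labelled as p53 knockout beside libraries labelled as p53 mutant, and Trp53 itself is the check of those labels. With 2 libraries in each group, the knockout and other differences between the clones cannot be told apart. Trp53 fell to 80.4 and 89.5 CPM in the KO clones, against 357 and 278 CPM in the Mut clones. Both KO clones were below each of the other 15 libraries, whose lowest value was 123 CPM. The mean was 85.0 ± 6.39 CPM in KO clones and 317 ± 56.1 CPM in Mut clones (SD, n = 2 each), a log2 change of -1.89 (SE 0.226), or 0.270 of the level in Mut clones. The adjusted p of the edgeR quasi-likelihood test was 0.00259 after Benjamini-Hochberg adjustment over 12238 genes. Trp53 ranked 443 by p among them. Of the genes tested, 26.1% passed an adjusted p of 0.05, 1734 as higher and 1466 as lower in KO clones. Without 1 of the 4 clones, whichever it was, these counts were 796 to 1016 and 502 to 753. The KO clones still held 1026 and 1125 Trp53 counts, so its RNA was lower there but not lost.

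Wrap53, which encodes a protein of telomerase and Cajal bodies and starts head to head with Trp53 on the opposite strand, was examined beside it. It had 15.8 and 18.0 CPM in the KO clones, against 27.3 and 29.6 CPM in the Mut clones. The log2 change of -0.74 (SE 0.248) had an adjusted p of 0.0710 by the edgeR quasi-likelihood test and did not pass. Scaled by library totals alone it passed, at -0.87 with an adjusted p of 0.0434. Counts of Trp53 per count of Wrap53 separated the KO clones from all other libraries. The ratio was 5.08 and 4.98 in the KO clones, against 13.1 and 9.37 in the Mut clones, and lay between 10.9 and 18.5 in the tumour lines and between 12.3 and 18.3 in MSC.

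Where the genes meet, they are 103 bases apart in the GENCODE annotation. RefSeq promoter windows run from 250 bases before to 50 after a start. The Trp53 window shares 208 bases with the Wrap53 window at chr11:69580201-69580500. Another Wrap53 window, chr11:69579200-69579499, does not overlap it. The Trp53 window is printed because it is shared in large part with a Wrap53 window. The levels of both genes also went together among the libraries (r = 0.819 over the 15 libraries without KO clones and 0.585 over all 17). The strand setting of the counting is not given in the sources used here, so reads of the 2 genes near their starts may not be told apart. The window is chr11:69580109-69580408, plus strand, from RefSeq with the build GRCm38.p6. Capitals mark 2 motifs. The first, starting at base 243, is a CCAAT box read on the minus strand. The other, starting at base 261, is the E-box CACGTG, which reads alike on both strands.

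Trp53 promoter window: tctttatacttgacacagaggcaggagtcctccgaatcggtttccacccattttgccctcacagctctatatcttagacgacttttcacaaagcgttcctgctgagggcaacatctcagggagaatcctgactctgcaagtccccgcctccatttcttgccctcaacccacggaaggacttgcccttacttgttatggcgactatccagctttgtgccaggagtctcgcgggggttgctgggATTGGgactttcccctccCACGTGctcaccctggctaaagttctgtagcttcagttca

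Of 32544 promoter windows of 300 bases, 7.17% held the E-box CACGTG, 37.4% CCAAT, 35.9% the GC box GGGCGG and 8.36% a p53 half-site, each searched on both strands. The Trp53 window held no GC box and 1 p53 half-site match, starting at base 176. Both Mdm4 windows held none of the 4 motifs. These matches describe letters and not sites in use.

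Mdm4 also fell in the KO clones, so that both members that could be tested between the clones passed, where 26.1% of all genes did. It had 14.7 and 13.9 CPM in the KO clones, against 29.8 and 28.6 CPM in the Mut clones. The mean was 14.3 ± 0.525 CPM in KO clones and 29.2 ± 0.834 CPM in Mut clones (SD, n = 2 each). The log2 change was -1.02 (SE 0.247), with an adjusted p of 0.0268 by the edgeR quasi-likelihood test. The call rested on having all 4 clones in the fit. It was lost without any 1 of the 4 libraries, with changes from -1.06 to -0.98 and adjusted p-values from 0.0868 to 0.130, and in a fit of all 17 libraries, at -1.03 with an adjusted p of 0.239. Mdm2 had 60.4 and 68.3 CPM in the KO clones, against 58.9 and 57.1 CPM in the Mut clones, a log2 change of 0.16 (SE 0.212, adjusted p = 0.608 by edgeR). Mdm4 counts per Mdm2 count were 0.243 and 0.204 in KO clones, against 0.506 and 0.501 in Mut clones. The tumour lines spanned 0.109 to 0.878 and MSC 0.320 to 0.456, so that the ratio in KO clones lay within the range of the tumour lines.

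**Figure D2:**
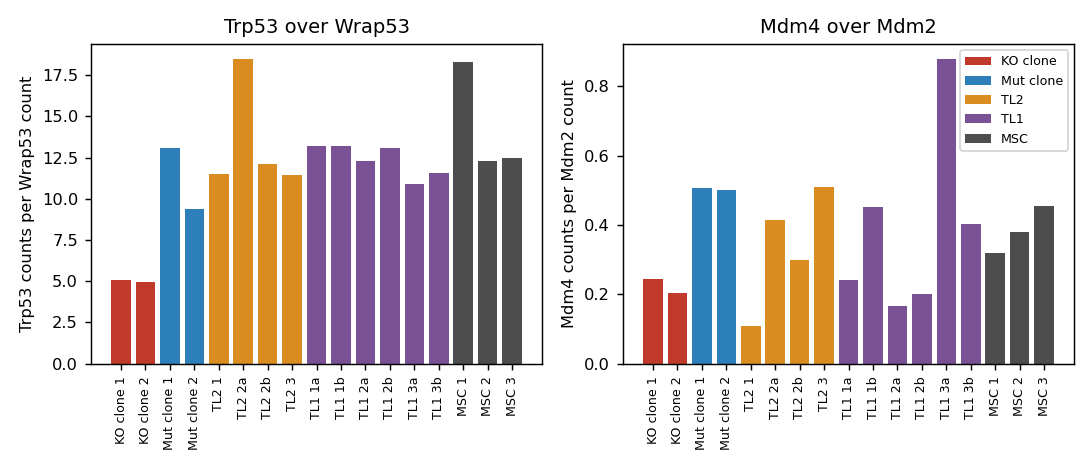
Counts of Trp53 per Wrap53 count and of Mdm4 per Mdm2 count in each library, coloured by group. Trp53 per Wrap53 was near 5 in the 2 KO clones, at 5.08 and 4.98, and at least 9.37 elsewhere, whereas Mdm4 per Mdm2 varied from 0.109 to 0.878 among the tumour lines.

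Trp63 was not tested between the clones because it was too low for the filter on counts. It had 5 and 20 counts in the KO clones (0.392 and 1.59 CPM), against 0 and 0 counts in the Mut clones. With the KO counts as read and 3 counts assumed over the Mut clones in place of 0, the lower bound of its fold difference was 8.71. This figure allows for counting error in the Mut clones only, and 20 of the 25 KO counts were in KO clone 2. Neither clone group reached the level of the MSC. Trp73 had 0 and 1 counts in the KO clones and 0 in both Mut clones. For a single value in 2 libraries against 2, the exact two-sided permutation test cannot give a p below 0.333.

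Between the tumour lines and the MSC from which such lines are derived, none of the 3 members that could be tested passed the edgeR test, at adjusted p-values of 0.269 to 0.944. In that comparison 8.65% of 13262 genes were called, 512 as higher and 635 as lower in the tumour lines. These counts rested on the MSC libraries: 88 higher and 261 lower were called without MSC 1, 75 higher and 229 lower without MSC 3, and 247 higher without MSC 2. Trp53 had 311, 273, 177 and 233 CPM in TL2 lines 1, 2a, 2b and 3. In TL1 its lowest, median and highest values were 123, 239 and 298 CPM, and the MSC had 263, 204 and 198 CPM. All 3 groups overlapped. The log2 change of tumour lines over MSC was 0.14 (SE 0.259, adjusted p = 0.755 by edgeR) and that of TL2 over TL1 was 0.13 (SE 0.250, adjusted p = 1.00 by edgeR). In mean level the order was Mut clones at 317, TL2 at 248 ± 57.4, TL1 at 229 ± 69.8, MSC at 222 ± 35.7 and KO clones at 85.0 CPM, and the only neighbours in this order with separate ranges were MSC and KO clones.

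Mdm4 ranged more widely among the tumour lines than in the MSC or the clones. It had 7.75, 24.9, 20.0 and 34.7 CPM in TL2 lines 1, 2a, 2b and 3. In TL1 the lowest, median and highest values were 13.5, 21.7 and 36.8 CPM, and the MSC had 18.6, 24.7 and 23.0 CPM. The lines lay on both sides of the MSC. Tumour lines over MSC gave a log2 change of 0.05 (SE 0.383, adjusted p = 0.944 by edgeR), and TL2 over TL1 gave -0.07 (SE 0.373, adjusted p = 1.00 by edgeR). The sign of both changed when single libraries were left out. The 3 lines numbered 3 had 27.5 to 36.8 CPM, above every line numbered 1, at 7.75 to 26.1 CPM, and every line numbered 2, at 13.5 to 24.9 CPM. This split by title number was noticed in the values and was not tested. In mean level, Mut clones at 29.2 CPM were followed by TL1 at 23.0 ± 8.75, MSC at 22.1 ± 3.13, TL2 at 21.8 ± 11.2 and KO clones at 14.3 CPM, and all neighbours in this order overlapped.

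Trp63 ranged from 0 to 25.6 CPM, and the counts do not tell its isoforms with and without the activation domain apart. It had 0.0656, 4.53, 25.5 and 0.129 CPM in TL2 lines 1, 2a, 2b and 3. In TL1 the lowest, median and highest values were 0.196, 1.17 and 3.00 CPM, and the MSC had 6.76, 6.62 and 25.6 CPM. All 6 TL1 lines and 3 of 4 TL2 lines were below every MSC library, and the line TL2 2b, at 365 counts, was close to the highest of them, MSC 3 at 335 counts. Tumour lines over MSC gave a log2 change of -2.04 (SE 1.13), which did not pass, with an adjusted p of 0.269 by edgeR. It was -3.17 without TL2 2b (adjusted p = 0.0806) and -1.07 without MSC 3 (adjusted p = 0.741), and over all alternatives the adjusted p ranged from 0.0522 to 0.741. TL2 over TL1 gave 2.58 (SE 1.22, unadjusted p = 0.0541, adjusted p = 1.00 by edgeR), which became 0.32 without TL2 2b.

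By title number, Trp63 was at 0.0656 to 0.224 CPM in the 3 lines numbered 1, at 1.42 to 25.5 CPM in the 4 lines numbered 2 and at 0.129 to 3.00 CPM in the 3 lines numbered 3. The lines numbered 1 and 2 did not overlap. This split was also noticed in the values and not tested. By mean level the order was MSC at 12.98 ± 10.9, TL2 at 7.56 ± 12.1, TL1 at 1.26 ± 1.07, KO clones at 0.991 ± 0.848 and Mut clones at 0 CPM.

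Trp73 was at the limit of detection. It had 4 counts in all 17 libraries together, 2 in TL1 3b and 1 each in MSC 1 and KO clone 2, and 0 in the other 14. Pooled over the libraries this is 0.0171 CPM, with an exact 95% Poisson interval of 1.09 to 10.24 counts. A library with no count allows up to 0.193 to 0.242 CPM, the level of 3 counts, and such bounds cover counting error only. The exact two-sided permutation test gave p = 1.0 for tumour lines against MSC, over 286 arrangements, and p = 1.0 for TL2 against TL1, over 210, so that no difference was detectable at this depth. Since TL1 3b alone held counts among the tumour lines, the test of TL2 against TL1 could not have passed. Neither result shows that the groups are alike.

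**Figure D3:**
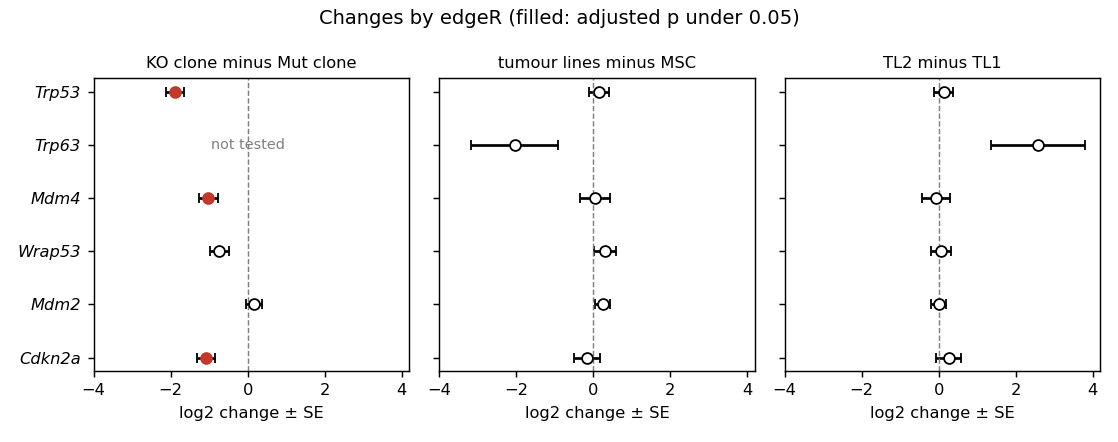
Log2 changes with their standard errors for 3 of the 4 members and for Wrap53, Mdm2 and Cdkn2a in the 3 comparisons, from edgeR. Filled points passed an adjusted p of 0.05: Trp53, Mdm4 and Cdkn2a at -1.89, -1.02 and -1.08 between KO and Mut clones. Trp63 was not tested between clones and had the longest error bars elsewhere.

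TL2 lines were grown, per the labels, from tumours that arose after TL1 cells had been injected, and the comparison of TL2 with TL1 is that of 2 generations. No gene was called by edgeR among 13262 (0%), while 246 had an unadjusted p under 0.05 (1.85%), and 3 were called by DESeq2 (0.0229%) and 0 by limma-voom. For Cdkn2a, whose product p19Arf inhibits Mdm2, and which also encodes the cell cycle inhibitor p16, the TL2 lines averaged 424 ± 132 CPM (n = 4), TL1 lines 357 ± 153 CPM (n = 6) and MSC 445 ± 57.8 CPM (n = 3; SD throughout). Its log2 change was 0.26 (SE 0.319, adjusted p = 1.00 by edgeR) for TL2 over TL1 and -0.16 (SE 0.325, adjusted p = 0.779 by edgeR) for tumour lines over MSC. For Mdm2 the log2 change was 0.24 (SE 0.192, adjusted p = 0.441 by edgeR) in tumour lines over MSC, and for Wrap53 it was 0.30 (SE 0.279, adjusted p = 0.514 by edgeR), neither of which passed.

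The known regulators of p53 were counted in 7 lists, covering ubiquitin ligases and proteases, Mdm2 inhibitors and ribosomal sensors, kinases and phosphatases, acetylation and methylation enzymes, binding partners, chaperones of mutant p53 and regulators of its mRNA. All 58 were tested. Between KO and Mut clones 7 were higher and 2 lower, 15.5% against 26.1% of all genes, with a median log2 change of 0.02 against 0.00496 for all genes. DESeq2 called 15 of the 58 and limma-voom 9, against 31.3% and 26.4% of all genes. Cdkn2a fell to 237 and 197 CPM in the KO clones, against 523 and 405 CPM in the Mut clones (log2 change -1.08, SE 0.229, adjusted p = 0.0177 by edgeR). The call was lost without Mut clone 1, KO clone 1 or KO clone 2, with adjusted p-values of 0.0688, 0.0631 and 0.117, and in the fit of all 17 libraries, at 0.157. Ncl, which encodes nucleolin, a protein that binds p53 mRNA, had 1036 to 1302 CPM in KO clones and 1929 to 2466 CPM in Mut clones, a log2 change of -0.90. It was called with an adjusted p of 0.0365 by edgeR.

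Of the 7 regulators that rose in KO clones, 3 were among the 10 kinases and phosphatases (30%) and 3 among the 9 binding partners (33.3%). Both shares are near the 26.1% of all genes, and nothing is read from them. Yap1, a transcriptional co-activator that binds p73, had 1333 to 2252 CPM in KO clones and 120 to 149 CPM in Mut clones, a log2 change of 3.75. Trp53inp2, related to the p53-induced nuclear protein Trp53inp1, had 109 to 120 CPM in KO clones and 16.6 to 17.9 CPM in Mut clones (log2 change 2.75). Ppp1r13l, the inhibitory ASPP family member, had 34.3 to 47.4 CPM in KO clones and 12.7 to 13.3 CPM in Mut clones (log2 change 1.67). Their edgeR adjusted p-values were 0.000820, 0.000612 and 0.00764. Dyrk2, Hipk2 and Abl1, kinases that act on p53 or p73, rose by 1.15, 1.11 and 0.82 on the log2 scale, and Usp2, a protease that removes ubiquitin from Mdm2, had 15.8 to 17.6 CPM in KO clones and 1.30 to 1.50 CPM in Mut clones (log2 change 3.58, adjusted p = 0.00163 by edgeR). Of the 10 acetylation and methylation enzymes 0 were called by edgeR or limma-voom, with 5 at an unadjusted p under 0.05, where 40.4% of all genes were, and 3 called by DESeq2, where 31.3% of all genes were. Of the 5 chaperones of mutant p53 0 were called by any of these tools, and 0 had an unadjusted p under 0.05. Over all genes edgeR called 26.1%, limma-voom 26.4% and DESeq2 31.3%, and 40.4% had an unadjusted p under 0.05 by edgeR.

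In tumour lines over MSC, 3 of the 58 regulators were called by edgeR, all as higher, 5.17% against 8.65% of all genes, with a median of 0.23 against 0.10 for all genes. DESeq2 called 8 of the 58 and limma-voom 4, against 16.8% and 10.1% of all genes. Rbm38, an RNA-binding protein that acts on p53 mRNA, had 38.9 to 84.4 CPM in tumour lines and 7.55 to 18.6 CPM in MSC (log2 change 2.08). Hdac6, a deacetylase of a chaperone that mutant p53 relies on, had 67.6 to 136 CPM in tumour lines and 31.8 to 44.3 CPM in MSC (log2 change 1.40). Wwp1, a ubiquitin ligase, had 47.1 to 76.4 CPM in tumour lines and 21.3 to 39.2 CPM in MSC (log2 change 1.05). Because these 3 genes were picked as called in this same comparison, the separate ranges of tumour lines and MSC add no support. Between TL2 and TL1, 0 of the 58 were called by edgeR, DESeq2 or limma-voom, where 0%, 0.0229% and 0% of all genes were. An unadjusted p under 0.05 by edgeR was found for 0 of the 58 and for 1.85% of all genes.

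Genes known as direct targets of wild-type p53 moved both ways. Of 42 listed, 40 were tested between the clones, and 5 were higher and 5 lower in KO clones, a share of 25% that is near the 26.1% of all genes. The targets that rose included Cdkn1a, the cell cycle inhibitor p21, with 134 to 155 CPM in KO clones and 11.8 to 13.4 CPM in Mut clones (log2 change 3.53, adjusted p = 0.000265 by edgeR). Gdf15, a secreted stress factor, had 660 counts over the KO clones and 0 over the Mut clones, so it passed the filter on counts through the KO clones. With the KO counts as read and 3 counts assumed over the Mut clones in place of 0, the lower bound of the fold difference of Gdf15 was 230. Dram1, a lysosomal protein of autophagy, had 15.5 to 25.2 CPM in KO clones and 3.11 to 5.85 CPM in Mut clones. Among those that fell, Bbc3, the pro-apoptotic PUMA, had 3.74 to 4.31 CPM in KO clones and 23.1 to 23.5 CPM in Mut clones (log2 change -2.51), and Sesn2, which restrains mTORC1, had 22.1 to 24.1 CPM in KO clones and 75.9 to 87.1 CPM in Mut clones (log2 change -1.81).

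In tumour lines over MSC, 5 of 42 targets were higher and 2 lower, 16.7% against 8.65% of all genes, and the median of the list was -0.17 against 0.10 for all genes. DESeq2 called 12 of the 42 and limma-voom 6, against 16.8% and 10.1% of all genes. Epha2, a receptor tyrosine kinase, had 165 to 338 CPM in tumour lines and 26.8 to 80.6 CPM in MSC (log2 change 2.59). Eda2r, a receptor of the TNF receptor family, had 1.94 to 11.9 CPM in tumour lines and 0.167 to 0.242 CPM in MSC (log2 change 4.63). With 8 counts over the MSC libraries, Eda2r passed the filter on counts through the tumour lines. Nothing is read from the share of targets called, which includes it. Plk3 and Pmaip1, a stress kinase and the pro-apoptotic NOXA, rose by 2.10 and 2.26 on the log2 scale. Tnfrsf10b, the mouse death receptor for TRAIL, was lower, at 28.6 to 64.0 CPM in tumour lines and 66.1 to 102 CPM in MSC (log2 change -0.86, adjusted p = 0.0363 by edgeR).

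The genes of the epithelial programme that p63 governs in skin were lowest in the MSC, which had the highest mean Trp63. The summed level of the 14 listed genes was 27.0 and 35.6 CPM in KO clones, 27.9 and 67.4 CPM in Mut clones, 18.0 to 96.3 CPM in the tumour lines and 5.73 to 7.17 CPM in MSC. Among the tumour lines, TL2 2b and TL2 2a had the most Trp63 and the highest sums, at 81.3 and 96.3 CPM. The lines numbered 1, at 0.0656 to 0.224 CPM of Trp63, had the lowest sums, at 18.0 to 23.8 CPM. The other lines did not keep this order. TL1 3b, at 3.00 CPM of Trp63, had a sum of 42.7 CPM, and TL2 3, at 0.129 CPM, one of 44.9 CPM. TL1 2b and TL1 3a, at 1.42 and 0.907 CPM of Trp63, had sums of 62.9 and 57.3 CPM. Mut clone 2, with 0 counts of Trp63, had a sum of 67.4 CPM. How the sums go with Trp63 was not tested. Krt5, the basal keratin, had at most 1 count in any library. Krt14, its partner, had 0 counts in all 3 MSC libraries and 687 counts in TL2 2a. In tumour lines over MSC, 9 of the 14 were tested and 0 were called by edgeR, with 6 at an unadjusted p under 0.05, 5 called by DESeq2 and 0 by limma-voom, where the shares of all genes were 8.65%, 26.4%, 16.8% and 10.1%. At most 3 of the 14 genes were over 1 CPM in any MSC library, so that genes of the list could pass the filter on counts through the tumour lines alone, and nothing is read from the direction or number of those tested. The 8 epithelial markers, 2 of which (Krt5 and Krt14) are also in the p63 list, summed to 8.38 to 309 CPM in tumour lines and 0.458 to 1.78 CPM in MSC, and their part in these values was not tested.

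Between the clones 6 of the 14 p63 programme genes were tested, and 2 rose and 2 fell. A gene that is low in one group of clones passes the filter through the other, so this count is not set against that of all genes. Krt14 had 2.39 to 3.06 CPM in KO clones and 0.0723 to 0.0790 CPM in Mut clones (log2 change 5.02), 69 counts against 2. Itgb4, the integrin of hemidesmosomes, had 9.64 to 21.6 CPM in KO clones and 0.723 to 1.34 CPM in Mut clones (log2 change 3.92). Lama3, a laminin chain of the epithelial basement membrane, fell to 2 counts over the KO clones, against 246 over the Mut clones. Jag2, a Notch ligand, had 3.50 to 4.63 CPM in KO clones and 13.01 to 44.3 CPM in Mut clones (log2 change -2.80). The 8 epithelial markers summed to 3.58 to 3.61 CPM in KO clones and 35.0 to 111 CPM in Mut clones, mainly Krt18 at 33.8 to 109 CPM in Mut clones, and their part in the 4 calls was not tested.

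Of the 8 genes of the multiciliated cell programme that p73 governs, 3 were tested between the clones and 5 in the tumour lines. Between the clones 0 were called by edgeR, DESeq2 or limma-voom, with 2 at an unadjusted p under 0.05, where the shares of all genes were 26.1%, 31.3%, 26.4% and 40.4%. In the tumour lines edgeR called 1 of the 5, DESeq2 2 and limma-voom 0, where 8.65%, 16.8% and 10.1% of all genes were called. The gene called by edgeR was Rfx2, a transcription factor of ciliary genes. It had 2.17 to 6.29 CPM in tumour lines and 1.00 to 1.91 CPM in MSC (log2 change 1.51, adjusted p = 0.0437 by edgeR).

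Likeness to each member was measured as Pearson's r of log2 CPM over the 15 libraries without the KO clones, among 13796 genes. These libraries share a scaling, and the labels do not say whether lines with 1 title number are related, so r is given as a description. For Trp53 the nearest were Ccdc101, a subunit of the SAGA co-activator complex (0.936), Snrpe, a core protein of the spliceosome (0.931), and Orc1, a subunit of the origin recognition complex (0.923). The most opposed were Btg2, an anti-proliferative p53 target (-0.913), Galnt11, an O-glycosyltransferase (-0.89), and Zfp661, a zinc finger protein (-0.887). With the KO clones included, r of the 3 nearest genes was 0.479, 0.59 and 0.349. Wrap53 had an r of 0.819 with Trp53, rank 123, and 0.745 without TL1 3a and TL2 2b, the libraries farthest from the median of Trp53.

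For Trp63 the nearest genes were Eif4e3, a cap-binding protein (0.935), Cbr2, a carbonyl reductase (0.903), and Lsr, a receptor of tricellular junctions (0.902). Eif4e3 averaged 14.1 CPM in KO clones, 2.53 CPM in Mut clones, 6.65 CPM in TL2, 5.78 CPM in TL1 and 18.9 CPM in MSC. Lsr averaged at most 1.09 CPM in any group. The most opposed were Vma21, an assembly factor of the vacuolar ATPase (-0.932), Grpel2, a mitochondrial chaperone factor (-0.916), and Abcb1b, a drug efflux pump (-0.905). Among the members, r was -0.304 between Trp53 and Trp63, -0.368 between Trp53 and Mdm4 and -0.0234 between Trp63 and Mdm4.

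The 3 genes nearest to Mdm4 lie on its own chromosome, chromosome 1. They were Gpatch2 (0.899, 54.2 Mb from Mdm4), Wdr26, a subunit of the CTLH ubiquitin ligase (0.898, 48.2 Mb) and Rgl1, a Ral exchange factor (0.884, 19.5 Mb). The most opposed were Mrpl11 and Mrps28, proteins of the mitochondrial ribosome (-0.933 and -0.924), and Ctcf, the insulator protein (-0.905). Of the 50 genes most like Mdm4, 24 lie on chromosome 1, or 48.0%, where 795 of 13755 placed genes, or 5.78%, lie there. For comparison, 4 of the 50 genes most like Trp53 share its chromosome 11 and 2 of the 50 most like Trp63 share chromosome 16. The median r with Mdm4 was 0.441 over 81 genes within 5 Mb, 0.375 over 794 genes of chromosome 1 and 0.0029 over genes of other chromosomes. This pattern was looked at after its values had been seen.

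Between KO and Mut clones, the genes of chromosome 1 had a median log2 change of -0.56 over 699 genes, against 0.04 over genes of the other chromosomes. The median of all genes was -0.13 when scaled by library totals alone and 0.00496 with TMM scaling. Within 5 Mb of Mdm4 the median was -0.33 over 75 genes, of which 18 were called lower and 15 higher. Over all 12238 genes tested, 1466 were called lower and 1734 higher, or 26.1% in either direction. In bins of 5 Mb along the chromosome, the medians of all 35 bins with at least 5 genes were negative, also in the 14 bins with at least 20 genes. The log2 change of Mdm4, -1.02, lay below this chromosome-wide median, and the part of the chromosome in it was not tested. Pik3c2b, the neighbour of Mdm4 that encodes a class II phosphoinositide 3-kinase, averaged 1.54 CPM in KO clones and 7.26 CPM in Mut clones (log2 change -2.22, SE 0.509, adjusted p = 0.0227 by edgeR). On the other side Lrrn2 was at or near 0 CPM in all groups.

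Set by library against the mean of the 15 libraries without KO clones, the median deviation of chromosome 1 genes was 0.03 and -0.36 (log2) in KO clones, against 0.42 and 0.29 in Mut clones. Mdm4 deviated by -0.57 and -0.65 in KO clones and by 0.44 and 0.39 in Mut clones. In KO clone 1 the chromosome was near the mean while Mdm4 was below it. The 3 tumour lines numbered 3, which had the highest Mdm4 among the lines, had chromosome medians of 0.30 to 0.32, and TL1 2a, at -0.52, had the lowest chromosome median and an Mdm4 deviation of -0.69. TL2 1 had the lowest Mdm4, at -1.48, with a chromosome median of -0.32.

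**Figure D4:**
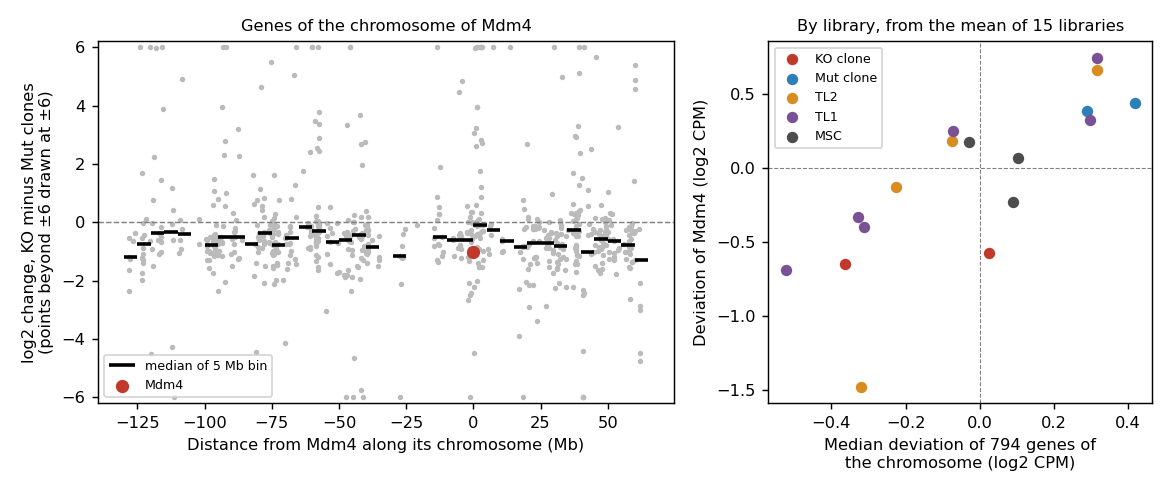
Left, log2 change of KO over Mut clones for each tested gene of the chromosome of Mdm4 by distance from Mdm4 in Mb, with the median of each 5 Mb bin as a line. Right, deviation of Mdm4 in each of the 17 libraries against the median deviation of 794 genes of its chromosome, both in log2 CPM from the mean of the 15 libraries without KO clones. All bin medians are below 0, Mdm4 lies at -1.02, and lines with high Mdm4 lie to the right.

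The chromosomes of the other members differed less or in the other direction between the clones. Within 5 Mb of Trp53 the median was -0.29 over 126 genes and on all of chromosome 11 it was -0.14, against -1.89 for Trp53 itself. Chromosome 16, which holds Trp63, had a median of 0.76 over 395 genes, against -0.01 over the genes of other chromosomes. Leprel1, the neighbour of Trp63 and a collagen prolyl hydroxylase, averaged 27.9 CPM in KO clones and 15.6 CPM in Mut clones, a log2 change of 0.85 that did not pass (adjusted p = 0.260 by edgeR). The part of the chromosome in the Trp63 counts of the KO clones was not tested. Near Trp73, Wdr8 was read at 21.3 CPM in KO clones, 15.4 CPM in Mut clones, 19.6 CPM in TL2, 17.8 CPM in TL1 and 12.7 CPM in MSC, and Ccdc27 had no count.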

How the data were processed

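The authors deposited a table of raw read counts for 23420 gene symbols. The submitters' processing notes name mm10 as the build and, without their roles, HTSeq 0.6.1p1, TopHat2 2.0.10, cutadapt and DESeq2 1.6.3. Sequencing was single-end with 60 bases, per the labels' protocols. Annotation and strandedness: not given in the sources used here. In the table, 4 columns match no sample and were not used.

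CPM on TMM-scaled library sizes were computed with edgeR 4.0.16 in R 4.3.3. Differences were tested with its robust quasi-likelihood test after filterByExpr, adjusted by Benjamini-Hochberg over all genes tested, and called under 0.05. The clones were fitted alone. Tumour lines (the mean of TL1 and TL2) against MSC, and TL2 against TL1, came from a fit of 13 libraries, 3 comparisons in all. Trp73 was tested by an exact permutation test of CPM. RPKM used the union of GENCODE exons. Alternatives were DESeq2 1.42.0, limma-voom (limma 3.58.1), other scalings, no filter, single libraries left out, tumour lines summed per number, a fit of 17 libraries and a replicate block. The script was tested on simulated counts with 200 genes changed per comparison. No pair of libraries in a group agreed within sampling noise (lowest chi-square per degree of freedom 30.49).

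Deviations from the group means correlated within a title number at r = 0.477, 0.375 and 0.490 between TL2 and TL1. Between either and MSC, r was -0.03 to 0.20. The main tests used no pairing, and the title number entered as a block only among the alternatives. Members and lists were chosen with earlier results of these data known. Genes named besides the members are Wrap53, Mdm2 and Cdkn2a, up to 3 called genes of each regulator list and up to 5 of each target list by smallest p, the nearest gene on each side and the 3 genes of highest and lowest r; Krt5, Krt18 and Ptprc are named from the marker lists. All 162 listed genes matched, 4 by an older symbol. Likeness skipped predicted and clone-named genes.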

Additional observations from a re-analysis of the deposited data

How the results depend on the processing

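The fall of Trp53 in KO against Mut clones kept its direction and its call in all 10 alternatives, from -2.07 to -1.70 on the log2 scale. Mdm4 between clones lost its call in the fit of 17 libraries (-1.03) and without each single clone (-1.06 to -0.98), and kept the call in the other 5. The numbers of genes called between clones became 512 higher and 308 lower in the fit of 17 libraries, and 796 to 1016 higher and 502 to 753 lower without single clones, where a lone library is assumed to vary like the other group. Cdkn2a between clones lost its call in 4 of 10 alternatives, and Wrap53 gained one with library totals alone.

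In tumour lines against MSC, DESeq2 called 1167 genes higher and 1041 lower, limma-voom 964 lower, and leaving out MSC 3 and TL2 2b together, an alternative added after the data were seen, 61 higher and 193 lower. Single libraries left out gave 75 to 682 higher and 229 to 850 lower, with the lowest counts of each kind without MSC 3. With the replicate block 968 genes were lower, against 635. Mdm4 turned negative with limma-voom (-0.07492) and with the replicate block (-0.01443), and ran from -0.14 to 0.19 without single libraries; none of these was called. Trp73 ran from -0.02784 to 0.01502 CPM.

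In TL2 against TL1, the pairing of the numbers as a block changed no call, and DESeq2 called 3 genes, all lower. Without single libraries Trp53 ran from -0.007313 to 0.26, Mdm4 from -0.39 to 0.21, Wrap53 from -0.15 to 0.18, Mdm2 from -0.1062 to 0.06784 (0.0303 with limma-voom) and Trp73 from -0.03003 to 0 CPM. Trp63 was 0.32 without TL2 2b, 0.40 with limma-voom and 1.57 with the block, against 2.58. The causes of these changes were not tested. Trp73 and, between clones, Trp63 are limited by depth.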
